A study of Mus musculus with 6 samples.

Results

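The genes described are the 10 that encode the core machinery of mitochondrial fusion and fission, Mfn1, Mfn2, Opa1, Oma1, Yme1l1, Dnm1l, Fis1, Mff, Mief1 and Mief2, chosen by gene symbol from 21878 listed genes. All 10 were found, and all 10 passed the filter on low values. Their transcripts were measured by RNA-seq in hematopoietic stem cells (HSCs) sorted as CD34-Flk2-Lineage-Sca1+c-Kit+ from the bone marrow (BM) of wild-type mice, in 3 libraries of control mice, which were given vehicle, and 3 libraries of mice treated with insulin-like growth factor 1 (IGF1), a peptide hormone that signals through a receptor tyrosine kinase. IGF1 was given as recombinant protein under the skin, and cells were taken 1 day later. The label on extraction speaks of control or irradiated (IR) mice, whereas the treatment label names IGF-1, and the groups were taken from the latter. Neither the age nor the sex of these mice is given, and nothing says that the libraries of a group came from separate animals, so p-values measure the spread between these libraries only.

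Mitochondria are continually joined and divided. In fusion, the mitofusins on the outer membrane tether neighbouring organelles and merge their outer membranes, and OPA1 then merges the inner membranes and shapes the cristae. OPA1 is cut by 2 proteases of the inner membrane, YME1L, which acts constitutively, and OMA1, which is activated by stress. In fission, the cytosolic dynamin DRP1, encoded by Dnm1l, is recruited by outer membrane adaptors, forms rings and constricts the organelle. MFF and the paralogs MiD49 and MiD51, encoded by Mief2 and Mief1, are such adaptors, and FIS1 is a small anchored protein that was first described as one. In HSCs, the mitochondrial network and its dynamics have been linked to quiescence and to divisional history.

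All members are protein-coding genes in the GENCODE annotation of GRCm38. The fusion genes lie with Mfn1 at chr3:32529465-32579239, Mfn2 at chr4:147873599-147904704 and Opa1 at chr16:29579334-29654884. The protease genes lie with Oma1 at chr4:103313812-103371868 and Yme1l1 at chr2:23156369-23199260. The fission genes lie with Dnm1l at chr16:16312230-16358959, Fis1 at chr5:136953275-136966234, Mff at chr1:82724890-82752394, Mief1 at chr15:80234018-80253371 and Mief2 at chr11:60728398-60732951. Mfn2 and Dnm1l are on the minus strand and the others on the plus strand.

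The promoters of Opa1 and Fis1 are shown because they had the largest fitted differences between the groups, in opposite directions, of the fusion and the fission members and because the RefSeq starts coincide with the start of the annotated gene. Both are from the RefSeq promoter table of build GRCm38.p6, which had 15 entries for the 10 members, and both are read 5′ to 3′ on the plus strand, Opa1 at chr16:29579084-29579383 and Fis1 at chr5:136953025-136953324. Capitals mark, on either strand, the letters GGGCGG of an Sp1 box, CCAAT of a CCAAT box, CCGGAAG of an ETS site and GCATGCGC of an NRF1 site, where adjacent or overlapping matches run together.
Opa1: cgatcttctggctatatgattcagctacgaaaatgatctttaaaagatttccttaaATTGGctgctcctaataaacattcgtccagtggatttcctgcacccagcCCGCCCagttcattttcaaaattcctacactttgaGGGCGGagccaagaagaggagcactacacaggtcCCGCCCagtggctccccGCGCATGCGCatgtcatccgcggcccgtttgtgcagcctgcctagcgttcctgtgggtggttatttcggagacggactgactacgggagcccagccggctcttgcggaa
Fis1: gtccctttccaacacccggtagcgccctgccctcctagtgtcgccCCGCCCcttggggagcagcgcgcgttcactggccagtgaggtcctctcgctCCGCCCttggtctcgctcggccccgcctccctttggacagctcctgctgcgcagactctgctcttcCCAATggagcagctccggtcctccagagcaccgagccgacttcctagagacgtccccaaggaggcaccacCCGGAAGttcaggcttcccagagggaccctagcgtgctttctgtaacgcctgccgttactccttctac

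All 10 members had the Sp1 letters in at least 1 of their RefSeq promoters, against 35.7% of the 32851 promoters in the table. The ETS letters were in promoters of 5 members (Dnm1l, Fis1, Mfn1, Mief1 and Yme1l1) and in 8.86% of all promoters. The NRF1 letters, the site of a factor known for nuclear genes of mitochondria, were in Opa1 alone among the members and in 2.71% of all promoters. The CCAAT letters were in promoters of 7 members and in 37.4% of all, and the E-box CACGTG was in Mief2 alone and in 7.15% of all. The letters AAGATGGCG of a YY1 site, TGACGTCA of a cAMP response element and TATAAA were in none of the members' promoters and in 1.40%, 1.79% and 13.6% of all. Members with several entries had more chances of a match, and the letters alone do not show a bound site.

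The values are FPKM, fragments counted relative to transcript length and sequencing depth, so they can be set side by side between genes of different length. Reads assigned to listed genes, recovered from the steps of the FPKM values up to 1 common scale, came to between 11206800 and 15973834 per library, and no mitochondrially encoded gene was among the rows. Control replicate 2 stood apart from the other controls: on the first principal component of log2 values, which held 93.2% of the variance, it lay at 17.8, with the other controls at -64.7 and -64.8 and the IGF1 libraries between 36.6 and 37.8. Each member's result is therefore given with and without this library, and gene lists are given with the calls made without it. Across the 10449 genes that could be tested, 4.63% were lower and 1.98% higher in IGF1 libraries at a fold change over 2 and an adjusted p under 0.05 from limma. Without control replicate 2 these shares were 20.6% and 12.3%. The median log2 change of all tested genes was -0.18, and -0.24 without that library. With all 6 libraries, 59.6% of all tested genes had a negative change.

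HSCs of IGF1-treated mice had lower values of all 3 fusion genes and of both OPA1 proteases, with log2 changes from -0.34 to -1.13, and of 3 of the 5 fission genes, whereas Fis1 and Mief2 were higher. None of the 10 members passed both thresholds when all 6 libraries were used. Mff alone passed on its adjusted p, against 20.4% of all tested genes, and 5 members (Opa1, Yme1l1, Dnm1l, Fis1 and Mff) had an unadjusted p under 0.05, both in limma's fit of FPKM and in its voom fit of the recovered reads, which called 0 members too. Without control replicate 2, 4 members were called lower (Mfn2, Opa1, Yme1l1 and Mief1) and 1 higher (Fis1), and all 10 had an adjusted p under 0.05 from limma, as did 88.5% of all tested genes. The groups did not overlap for 5 members that were lower in IGF1 libraries and for 1 that was higher, against 37.4% and 21.9% of all tested genes. An exact permutation test on a single member cannot give a two-sided p below 0.1 with 3 against 3 libraries.

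**Figure D1:**
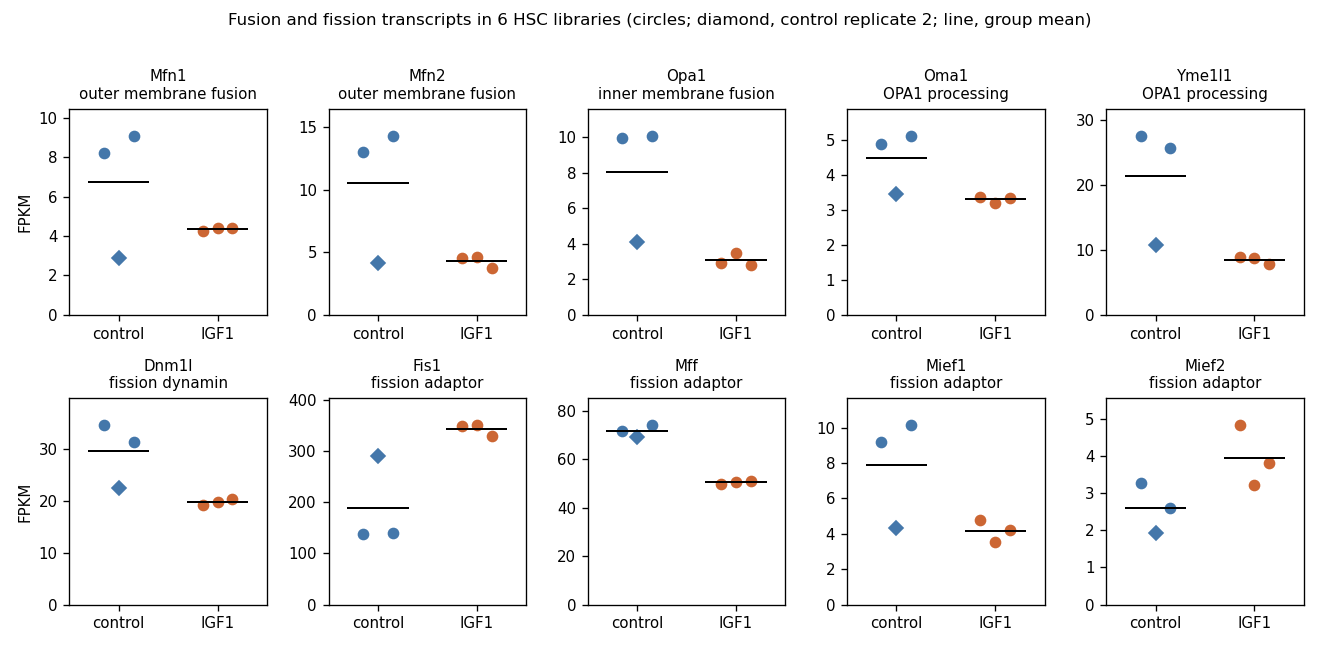
FPKM (vertical axes, each from 0) of the 10 members in the 3 control and 3 IGF1 libraries. Each point is a library, the diamond is control replicate 2 and lines are group means. The diamond lies near the IGF1 points in most panels, but with the other controls for Mff.

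Mfn1, which encodes mitofusin 1, was at 8.20, 2.87 and 9.09 FPKM in replicates 1, 2 and 3 of the vehicle group and at 4.27, 4.42 and 4.38 FPKM in those of the IGF1 group. Control replicates 1 and 3 were above every IGF1 library and control replicate 2 was below every one, so the groups overlapped. The log2 change was -0.41 ± 0.37 (SE, n = 3 per group, adjusted p = 0.380 from limma) with all libraries and -0.85 ± 0.07 (adjusted p = 8.81e-07) without control replicate 2.

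Mfn2, the paralog that also tethers mitochondria to the endoplasmic reticulum, was at 13.0, 4.15 and 14.3 FPKM under vehicle, in replicate order, and at 4.54, 4.63 and 3.72 FPKM under IGF1. Here control replicate 2 lay among the IGF1 libraries while the other controls were well above them. It differed between the groups by -0.97 ± 0.43 on the log2 scale (adjusted p = 0.110 from limma) with all libraries and -1.47 ± 0.09 without control replicate 2, where Mfn2 was called.

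Opa1, the inner membrane dynamin, was at 9.94, 4.13 and 10.1 FPKM under vehicle, in replicate order, and at 2.93, 3.48 and 2.81 FPKM under IGF1. Every control was above every IGF1 library, although control replicate 2 was nearer to the IGF1 libraries. Group means were 8.06 ± 3.40 and 3.08 ± 0.36 FPKM (SD, n = 3), and the log2 change was -1.07 ± 0.32 (SE, adjusted p = 0.0560 from limma). Without control replicate 2 it was -1.44 ± 0.08, and Opa1 was called.

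Yme1l1 encodes the constitutive OPA1 protease. It had the most negative log2 change of the members with a pseudocount of 1 and no further scaling or trend removal. By mean FPKM, controls were at 2.52 times IGF1 for Yme1l1 and at 2.62 times for Opa1. Yme1l1 was at 27.6, 10.8 and 25.7 FPKM under vehicle, in replicate order, and at 8.86, 8.73 and 7.89 FPKM under IGF1, and the groups did not overlap. Its log2 change was -1.13 ± 0.35 (SE, adjusted p = 0.0582 from limma) with all libraries and -1.54 ± 0.06 without control replicate 2, where it was called.

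Oma1, the stress-activated protease, was at 4.89, 3.46 and 5.13 FPKM under vehicle, in replicate order, and at 3.37, 3.20 and 3.35 FPKM under IGF1. The groups were separated by the small gap between control replicate 2 and IGF1 replicate 1. Limma gave a log2 change of -0.34 ± 0.15 (SE, adjusted p = 0.117 from limma), and -0.48 ± 0.07 without control replicate 2. The FPKM steps of Oma1 imply a length of 9802 bases, against 1915 bases for its longest annotated transcript. Its level relative to other genes is therefore uncertain, while ratios of its FPKM between libraries are not affected. Its log2 change depended on the pseudocount, and was -0.41 with a pseudocount of 0.1 and -0.19 with one of 5.

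Dnm1l, which encodes the fission dynamin, was at 34.7, 22.6 and 31.5 FPKM under vehicle, in replicate order, and at 19.3, 19.9 and 20.5 FPKM under IGF1. All controls were above all IGF1 libraries, with control replicate 2 nearest to them. The log2 change was -0.53 ± 0.17 (SE, adjusted p = 0.0624 from limma), and -0.71 ± 0.05 without control replicate 2, which is short of a 2-fold change. An antisense gene, Gm49521, overlaps its exons, and how strand was used in counting is not given in the sources used here.

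Fis1 was the highest of the members in every library. With no further scaling or trend removal it had the largest positive log2 change. It was at 139, 291 and 139 FPKM under vehicle, in replicate order, and at 349, 351 and 330 FPKM under IGF1. The groups did not overlap, and control replicate 2 was closer to the IGF1 libraries than to the other controls. Group means were 190 ± 87.8 and 343 ± 11.5 FPKM (SD, n = 3), and the log2 change was 0.94 ± 0.31 (SE, adjusted p = 0.0627 from limma). Without control replicate 2 it was 1.30 ± 0.03, and Fis1 was called.

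Mff, the adaptor that recruits DRP1 to the outer membrane, was a member in which control replicate 2 stayed close to the other controls. It was at 71.5, 69.2 and 74.0 FPKM under vehicle, in replicate order, and at 49.7, 50.5 and 51.0 FPKM under IGF1, with group means of 71.6 ± 2.41 and 50.4 ± 0.65 FPKM (SD, n = 3). The log2 change of -0.50 ± 0.09 (SE, adjusted p = 0.0336 from limma) was nearly the same without control replicate 2 (-0.52 ± 0.04). Its adjusted p from limma was between 0.147 and 0.164 when any other library was left out, and it was 0.0645 with median-of-ratios scaling and 0.103 with scaling to the 75th percentile. On a scale where the mean of control replicates 1 and 3 is 0% and the mean of the IGF1 libraries is 100%, control replicate 2 lay at 13.8% for Mff, against a median of 80.6% over the 6619 tested genes that differed by more than 0.5 on the log2 scale between those libraries. Of those genes, 4.82% lay at or below 25%. An antisense gene, C430014B12Rik, overlaps the exons of Mff. The FPKM steps of Mff imply a length of 2102 bases, against 3918 bases for its longest annotated transcript.

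Mief1, which encodes MiD51, was at 9.17, 4.33 and 10.1 FPKM under vehicle, in replicate order, and at 4.79, 3.51 and 4.23 FPKM under IGF1, and control replicate 2 lay among the latter. The log2 change was -0.71 ± 0.30 (SE, adjusted p = 0.102 from limma), and -1.05 ± 0.10 without control replicate 2, where it was called. Its exons overlap those of AC140267.1 on the same strand. Mief2, which encodes the paralog MiD49, was at 3.27, 1.92 and 2.61 FPKM under vehicle, in replicate order, and at 4.83, 3.22 and 3.81 FPKM under IGF1. Control replicate 2 was the lowest library and lay on the far side of the other controls from the IGF1 libraries, which overlapped with control replicate 1. Its log2 change came to 0.47 ± 0.19 (SE, adjusted p = 0.0982 from limma) with all libraries and 0.32 ± 0.13 (adjusted p = 0.0386) without control replicate 2. Mief2 rested on the fewest reads of the members, between 56 and 151 a library, and the 95% Poisson interval of its lowest count was 42.3 to 72.7 reads, which covers counting error only.

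**Figure D2:**
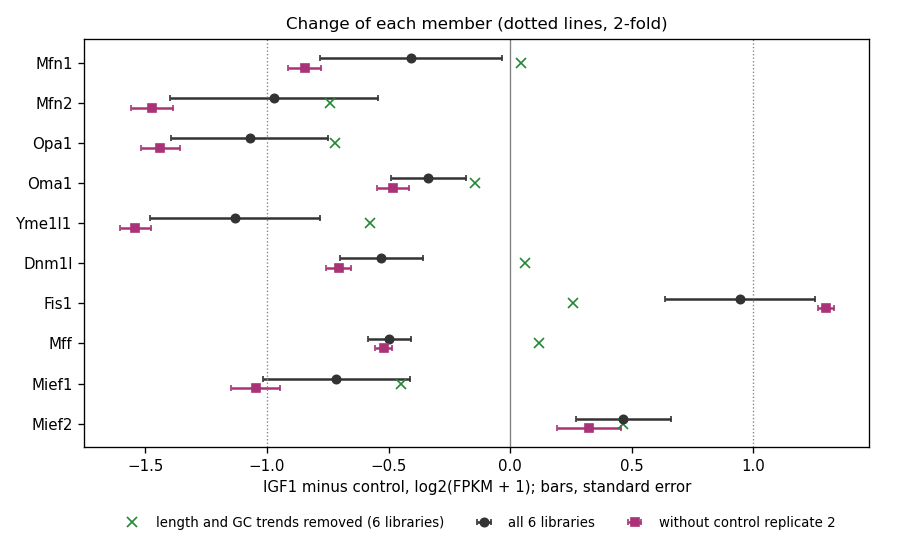
Change of each member, as IGF1 minus control on the log2(FPKM + 1) scale (horizontal axis), with standard errors for the fit of all 6 libraries (circles) and without control replicate 2 (squares), and the fitted value with trends on length and GC content removed (crosses). All squares but that of Mief2 lie further from 0 than their circles, and crosses for Mfn1, Dnm1l and Mff lie just above 0.

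Taken by role, the 3 fusion genes had a median log2 change of -0.97 and the 5 fission genes one of -0.50, against -0.18 for all tested genes. The mean log2 level of the fusion genes was 3.49, 2.23 and 3.58 in the controls and 2.28, 2.37 and 2.20 in the IGF1 libraries. The mean of the fission genes was 4.78, 4.57 and 4.74 in the controls and 4.71, 4.56 and 4.63 in the IGF1 libraries. Fusion genes thus stood further below fission genes in the IGF1 libraries (differences from -2.43 to -2.19 on the log2 scale) and in control replicate 2 (-2.34) than in control replicates 1 and 3 (-1.29 and -1.16), and control replicate 2 lay within the range of the IGF1 libraries. With Fis1 left out of the fission genes, these differences were -1.49, -1.22 and -1.50 in the IGF1 libraries, -1.44 in control replicate 2, and -0.71 and -0.56 in control replicates 1 and 3.

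Fis1 made up most of the summed fission transcripts, so ratios of summed FPKM turned largely on it. The summed FPKM of the 5 fission genes was 8.25, 34.9 and 7.68 times that of the 3 fusion genes in the controls and 36.4, 34.1 and 37.5 times in the IGF1 libraries. With Fis1 left out it was 3.81, 8.79 and 3.53 times in the controls and 6.69, 6.15 and 7.29 times in the IGF1 libraries. Control replicate 2 was then the highest library, so the groups overlapped. Among the 4 adaptors, Fis1 held 62.3%, 79.4% and 61.6% of the summed FPKM in the controls and 85.5%, 86.0% and 84.8% in the IGF1 libraries. Mff held 32.1%, 18.9% and 32.7% in the controls and 12.2%, 12.4% and 13.1% in the IGF1 libraries. Mief1 and Mief2 together held between 1.65% and 5.64% in any library. For the shares of Fis1 and Mff the groups did not overlap. The shares were not computed with trends on length and GC content removed.

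**Figure D3:**
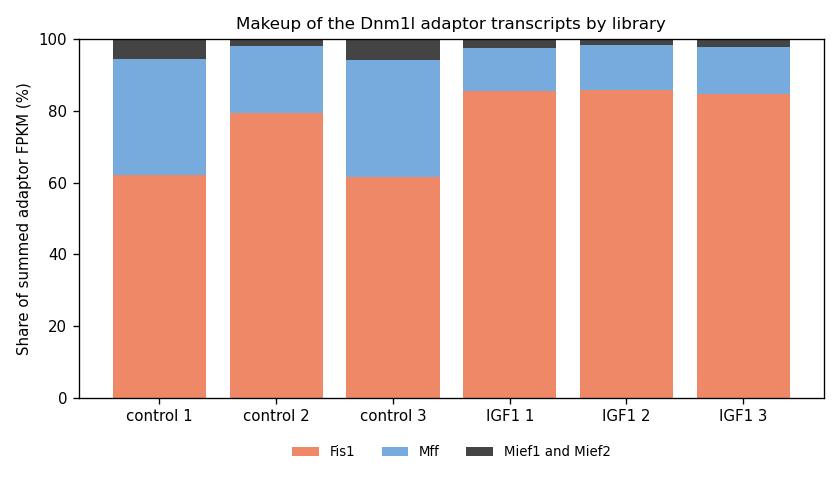
Share of the summed FPKM of Fis1, Mff, Mief1 and Mief2 (vertical axis, percent) held by each in the 6 libraries (bars). Fis1 takes 61.6% to 79.4% in the controls and 84.8% to 86.0% in the IGF1 libraries.

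A ratio of 2 members within a library does not depend on how the library was scaled. It can still carry trends on transcript length and GC content, and no ratio was computed with these removed. With them removed, as described below, the log2 changes of Fis1 and Mff were 0.26 and 0.12. Those of Mfn1 and Mfn2 were 0.04 and -0.74, and those of Mief1 and Mief2 were -0.45 and 0.46. The groups did not overlap in 23 of the 45 ratios of 2 members, against 56.6% of the ratios of any 2 tested genes with values above 0 in every library, so the count is no larger than that of other genes. In 10 of those 23, control replicate 2 was nearer to the other controls than to the IGF1 libraries. How often this holds for ratios of other genes was not counted. All of the 10 but Yme1l1 to Mief1 hold Mfn1 or Mief2. For these 2 genes control replicate 2 was itself extreme, at 156% and -131% on the scale given for Mff. For most single members it lay nearer to the IGF1 libraries. The ratio of Mief1 to Mief2, the 2 MiD paralogs, was 2.81, 2.25 and 3.89 in the controls and 0.99, 1.09 and 1.11 in the IGF1 libraries. The ratio of Mfn1 to Mfn2, the 2 mitofusins, was 0.63, 0.69 and 0.63 in the controls and 0.94, 0.95 and 1.18 in the IGF1 libraries. Both paralog ratios differed between all controls and all IGF1 libraries, and control replicate 2 stood with its group in both. The ratio of Mfn1 to Opa1 behaved likewise, with 0.82, 0.69 and 0.90 in the controls and 1.46, 1.27 and 1.56 in the IGF1 libraries. The ratio of Opa1 to Yme1l1 overlapped between the groups, between 0.36 and 0.39 in the controls and between 0.33 and 0.40 in the IGF1 libraries. That of Fis1 to Mff was 1.94, 4.21 and 1.88 in the controls and 7.02, 6.94 and 6.47 in the IGF1 libraries, with control replicate 2 in between. These ratios were picked from the 45 after their values were seen, and no test was made of them.

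**Figure D4:**
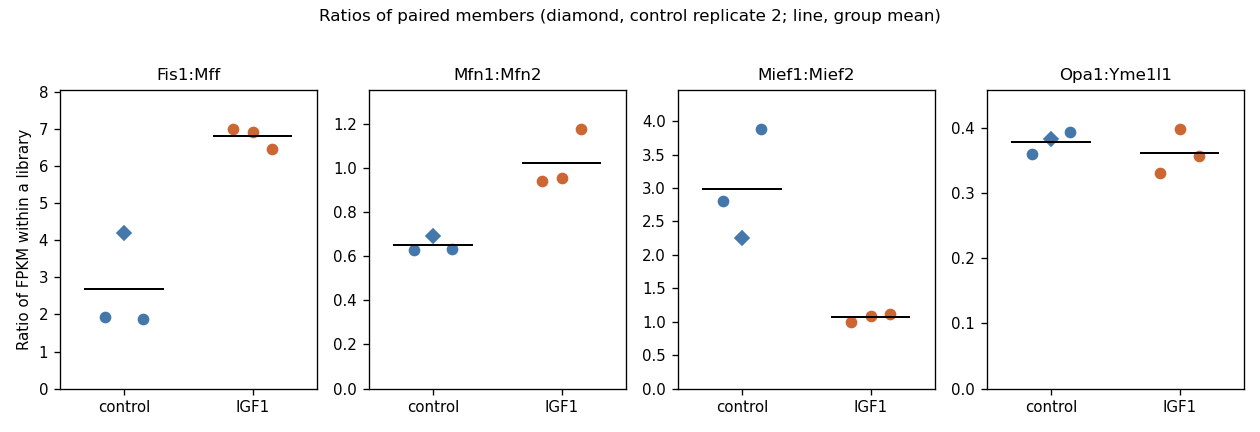
Ratio of the FPKM of 2 members within a library (vertical axes, from 0) in control and IGF1 libraries. Points are libraries, the diamond is control replicate 2 and lines are group means. The diamond lies with the other controls for Mfn1:Mfn2 and Mief1:Mief2, and between the groups for Fis1:Mff.

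Change went with transcript length and GC content across all genes. Tested genes were divided by length into 4 groups of like size. In the group with the shortest transcripts, up to 2115 bases, the median log2 change was 0.28, and in the next 3 groups by length it was -0.34, -0.43 and -0.16. Across 10101 tested genes with a known transcript, which are not independent replicates, the change had a Spearman rho of -0.21 with length and 0.38 with GC content. By the longest annotated transcript, Fis1 is the shortest of the members, with 948 bases, and Opa1 the longest, with 6230 bases. The lengths implied by the FPKM steps were 1113 bases for Fis1, 7506 for Opa1 and 9802 for Oma1. The trends were taken on annotated lengths. With trends on length and GC content removed within each library, Fis1 had a log2 change of 0.26 and Yme1l1 one of -0.58, while Mfn1 (0.04), Dnm1l (0.06) and Mff (0.12) turned from negative to positive. Mfn2 (-0.74), Opa1 (-0.72), Mief1 (-0.45) and Mief2 (0.46) kept most or all of theirs, and Oma1 had -0.15. The median was -0.72 for the fusion genes and 0.12 for the fission genes. No member was called, and whether length or GC content plays a part in the changes was not tested.

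**Figure D5:**
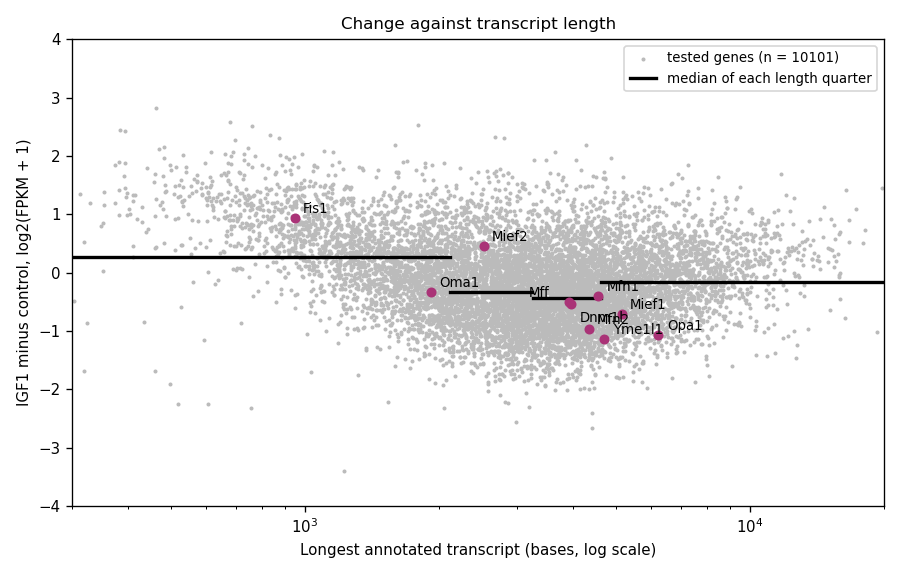
Log2 change between IGF1 and control (vertical axis) against the longest annotated transcript in bases (horizontal log axis) for 10101 tested genes (grey), with 8 genes beyond the horizontal limits not drawn. Black lines are medians of the 4 length groups, from 0.28 for the shortest to -0.43 in the third, and members are named, with Fis1 far to the left and above 0.

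None of 7 other genes that act on fusion was called. Their median log2 change was -0.59, with 6 lower and 1 higher, against 59.6% of all tested genes lower. Without control replicate 2 there were 2 called lower, against 20.6% of all tested genes. Mtch2, an outer membrane insertase that also acts in fusion, had -0.40 (adjusted p = 0.0479 from limma) and Fam73b, also known as Miga2, had -0.59 (adjusted p = 0.0517). Usp30, a deubiquitinase of the outer membrane, had 0.30 (adjusted p = 0.204).

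Of 15 tested regulators of fission 0 were called, with a median log2 change of -0.48. Of them 12 were lower and 3 higher, against 59.6% of all tested genes lower. Without control replicate 2, 6 were called lower and 1 higher, against 20.6% and 12.3% of all tested genes. Mtfr2, a fission regulator, had -0.91 (adjusted p = 0.0359 from limma) and Fundc1, a mitophagy receptor, had -0.89 (adjusted p = 0.0367), both short of 2-fold. The formin Inf2, which assembles actin at sites of constriction, was at 0.47, 3.23 and 0.68 FPKM under vehicle, in replicate order, and at 4.25, 3.77 and 4.12 FPKM under IGF1, a log2 change of 1.21 (adjusted p = 0.0650). Its groups did not overlap, and control replicate 2 was close to the IGF1 libraries. Ppp3cb, a catalytic subunit of calcineurin, which dephosphorylates DRP1, had 0.29 (adjusted p = 0.420).

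The proteases and prohibitins of the inner membrane had a median of -0.14 over 9 genes, 5 lower and 4 higher and 0 called. Parl, a rhomboid protease, had -0.50 (adjusted p = 0.0415 from limma) and Afg3l2, an m-AAA protease subunit, had -1.12 (adjusted p = 0.0575). Afg3l1 (0.30, adjusted p = 0.178) and the matrix protease subunit Clpp (0.28, adjusted p = 0.297) were higher in value. Afg3l2 (-1.52) was the 1 call made without control replicate 2.

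Of 11 genes of the MICOS complex and cristae 0 were called, with a median of -0.32. Of them 8 were lower and 3 higher, against 59.6% of all tested genes lower. Apool (-0.43) and Mtx2 (-0.46) each had an adjusted p of 0.0380 from limma. Minos1, which encodes MIC10, a core subunit that bends the membrane at cristae junctions, was at 66.7, 164 and 63.1 FPKM under vehicle, in replicate order, and at 197, 195 and 186 FPKM under IGF1 (1.11, adjusted p = 0.0656). The gene of MIC13, listed as 2410015M20Rik, had a log2 change of 1.13 (adjusted p = 0.0743). Both were called higher without control replicate 2, where 2 other genes of the list were called lower.

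The genes of transport along microtubules had a median of -0.25 over 5 genes, none of them called. Rhot1, which encodes the motor anchor Miro1, was at 30.4, 9.56 and 29.9 FPKM under vehicle, in replicate order, and at 6.57, 6.97 and 7.37 FPKM under IGF1 (-1.45, adjusted p = 0.0564 from limma), while its paralog Rhot2 had 0.26 (adjusted p = 0.320). The adaptor Trak1 had 0.62 (adjusted p = 0.0940) and Trak2 had -0.25 (adjusted p = 0.133). Rhot1 (-1.97) was the 1 gene of the list called without control replicate 2.

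As a reference, 13 other mitochondrial genes, of import, porins, the matrix and carriers, had a median of -0.35. Of them 11 were lower, against 59.6% of all tested genes, 2 were higher and 1 was called. With trends on length and GC content removed, the median was -0.17. These are RNA values, and mitochondrial content was not measured in these libraries. Hspd1, the matrix chaperonin, was called lower, at 287, 158 and 283 FPKM under vehicle and 109, 117 and 113 FPKM under IGF1, a log2 change of -1.05 (adjusted p = 0.0439 from limma). This call was lost when any library except control replicate 2 was left out (adjusted p between 0.152 and 0.164) and under each scaling. Vdac3, a porin, had -0.82 (adjusted p = 0.0367) and Cs, the citrate synthase gene, had -0.84 (adjusted p = 0.0427). The import receptors Tomm20 (0.06, adjusted p = 0.733) and Tomm22 (0.08, adjusted p = 0.765) had values near 0. Hspd1 (-1.33) and Cs (-1.06) were called lower without control replicate 2. The groups did not overlap for 11 of the 13, all lower in IGF1 libraries, against 37.4% of all tested genes.

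The sorted population was checked by its markers. Of the HSC markers, Slamf1 (0.74 to 2.41 FPKM) and Hoxb5 (0.28 to 0.69 FPKM) were low. Transcripts of the 2 genes the gate selects against, Cd34 and Flt3, were present in every library, and the groups did not overlap for either. Cd34 was at 640, 265 and 634 FPKM under vehicle, in replicate order, and at 231, 238 and 230 FPKM under IGF1. Its log2 change was -1.03 (adjusted p = 0.0714 from limma), and -1.45 without control replicate 2, where it was called lower. Flt3 was at 117, 172 and 117 FPKM under vehicle and at 187, 188 and 183 FPKM under IGF1 (0.48, adjusted p = 0.0783 from limma).

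Markers of other cells differed between libraries in both directions. Of 8 tested neutrophil and monocyte markers, 4 (Ngp, Camp, S100a8 and S100a9) were called lower. Elane, a granule protease gene of early myeloid cells, had values in the other direction, at 92.8, 576 and 92.5 FPKM under vehicle and 709, 696 and 692 FPKM under IGF1 (log2 change 2.03, adjusted p = 0.0726 from limma), and was called higher without control replicate 2, while Csf1r had 0.12 (adjusted p = 0.344). The summed list, in which Mpo has the largest values, was between 2280 and 2450 FPKM in the controls and between 2453 and 2459 FPKM in the IGF1 libraries, and Ly6g was at 0.20 FPKM or less in every library. Of 4 tested megakaryocyte and platelet markers 1, Gp1bb, was called higher, and Itga2b had -0.48 (adjusted p = 0.171), with the list at 51.8 to 74.5 FPKM in the controls and 93.1 to 104 FPKM in the IGF1 libraries. B cell markers summed to 90.7 to 296 FPKM in the controls and 295 to 311 FPKM in the IGF1 libraries, and T and NK cell markers to 358 to 777 and 769 to 788 FPKM, nearly all from Nkg7. Both sums overlapped between the groups because control replicate 2 lay with the IGF1 libraries, and 0 of the 7 tested genes of these lists were called by limma. With that library left out, 3 B cell markers, 3 megakaryocyte and platelet markers and 1 T and NK cell marker were called higher. In bulk RNA, fewer cells of a type and less RNA per cell cannot be told apart, and the part of other cells in the members' values was not tested.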

How the data were processed

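RNA-seq of sorted HSCs was analysed from 6 libraries, 3 control and 3 IGF1, grouped by the labels. The deposited values are FPKM per gene, made by the authors; their methods name fastp, RSEM and DESeq2, and the submitters' processing notes name fastp, HISAT2 and StringTie with build GRCm38 (mm10), so which tool gave the values is unsure. The annotation is not given in the sources used here. Limma 3.58.1 (R 4.3.3) was run on log2 of FPKM plus a pseudocount of 1, for genes reaching 1 FPKM in 3 or more libraries (trend, Benjamini-Hochberg over all genes tested), and called at a fold change over 2 and an adjusted p under 0.05. Fold changes on this scale understate those of low genes. Whole reads were recovered from FPKM steps in 100% of 15640 expressed rows (tolerance 0.02 reads), and limma's voom on them was an alternative. Others were scaling, filters, pseudocounts, a replicate block, library weights, trends on length and GC content, and each library left out. The code was tested on simulated data. Gene positions came from GENCODE on GRCm38. Members and lists were chosen with earlier results of these data known. Named were all members and, of each list, called genes and the 2 with the smallest adjusted p in each direction; markers named beside them were chosen after their values were seen. Marchf5 was not matched to a row and was not analysed here. A further marker list is not reported here.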

Additional observations from a re-analysis of the deposited data

How the results depend on the processing

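Over the members, 161 values under alternatives kept their direction and side of the thresholds, 10 passed them anew and 3 reversed. Library weights, which gave control replicate 2 a weight of 0.01, called 5 members, as leaving it out did. The number of members called ranged from 0 to 5 with 1 library left out. On adjusted p alone, 1 member and 2130 genes passed. Of all tested genes 691 were called, and 374 without a filter, 223 with a pseudocount of 5, 3435 with library weights, 327 with trends on length and GC content removed, 1059 with voom on recovered reads and 0 with a replicate block, while leaving out 1 library gave between 0 and 3438, with 0 for every library except control replicate 2. Replicate numbers did not pair the samples: deviations of same-numbered libraries correlated at -0.06, -0.05 and 0.01.

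The median change of the fission members was -0.24 under quantile normalization, -0.24 with scaling to the 75th percentile and -0.28 with median-of-ratios scaling. These moved the median of all genes from -0.18 to -0.02, 0.04 and 0.01, and relative to that median 8 members were lower and 2 higher under each. With trends on length and GC content removed, the fission median was 0.12, and Mfn1 (0.043), Dnm1l (0.062), Mff (0.12), Mtch2 (0.17), Clpp (-0.51), Apool (0.062) and Mtx2 (0.064) reversed. With 1 library left out, Tomm22 ranged from -0.038 to 0.31 and Tomm20 from -0.033 to 0.20. The cause of these shifts was not tested. A minimum of 5 FPKM left 4 members (Yme1l1, Dnm1l, Fis1 and Mff) and gave no median by role. Depth limits Mief2 most.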
